A study of Mus musculus with 9 samples.

Results

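The genes described here are 9 genes of the Yap-Taz pathway. Yap1 and Wwtr1 (which encodes TAZ) are the coactivator genes, and Tead1 encodes a DNA-binding partner. Amotl2, Lats2 and Ajuba encode cytoplasmic regulators of the pathway. Among the 9, Ctgf, Cyr61 and Ankrd1 are called the target genes here, and whether any other of the 9 is also a target was not tested. The 9 genes were taken by name, by a rule that uses no measured value but was set with earlier results of these data known. All 9 were found among the 31167 genes of the table and all 9 passed the filter on low values, which kept 13985 genes. The libraries were made from mouse (C57BL/6) kidney primary renal tubular epithelial cells in 3 groups of 3. Sham cells carry no treatment in the labels. H/R cells had 6 h in glucose-free medium at 1.0% oxygen and then 18 h of reoxygenation in complete medium, a culture model of ischemia and reperfusion. EGR1OV cells were transfected with a plasmid that expresses Egr1 from a CMV promoter, and the labels give them no H/R treatment. The labels do not say whether Sham and H/R cells received an empty plasmid, so the added Egr1 and the transfection cannot be told apart, nor do they say that the 3 libraries of a group came from separate cultures or animals. The p-values therefore measure only the spread between these libraries.

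YAP and TAZ are transcriptional coactivators that do not bind DNA themselves. In the nucleus they join TEAD factors at target genes. In dense or relaxed epithelium MST kinases activate LATS kinases, which phosphorylate YAP and TAZ. This keeps YAP and TAZ in the cytoplasm or marks them for degradation. Much of the control therefore acts on the proteins, and transcript levels record only the amount of messenger RNA of each component and of the targets. In kidney tubules YAP and TAZ are known for roles in development, in regrowth after injury and in fibrosis.

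Levels are FPKM, read fragments per kilobase of exon after correction for library size, so levels of different genes can be set side by side per length. The depth recovered from the steps of the values was 16183617 to 18384022 reads per library, and 1192 to 50721 reads lay behind each value of the 9 genes. Their coefficient of variation within a group was 0.147% to 4.89%, beside medians of 3.50%, 3.84% and 3.88% over 7588 genes of at least 5 FPKM in Sham, H/R and EGR1OV. Egr1 itself, the check of the labels, was at 6.20, 6.91 and 6.09 FPKM in Sham, 8.57, 7.59 and 7.48 after H/R, and 45.7, 42.2 and 40.1 in EGR1OV. One small RNA gene, Gm23935, was far higher in Sham 3, H/R 2, H/R 3 and EGR1OV 3 than in the other libraries (1494 to 21700 FPKM, at most 0.124% of reads), and no library label explains it. Markers of tubule epithelium were present for 9 of 15 genes at a mean of at least 0.5 FPKM, among them Krt8, Krt18, Cdh1, Epcam, Pax8 and Cdh16. The proximal tubule genes Lrp2 and Aqp1 were also among these, at 3.60 and 1.3 FPKM in Sham, while the means of Slc34a1, Cubn, Slc12a1 and Slc12a3 over the 9 libraries were under 0.5 FPKM (Cubn was at 0.503 to 0.572 in Sham) and Umod was listed at 0.

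The promoters of these genes are shown because TEAD factors recognise the letters GGAATG, which read as CATTCC on the other strand, and because EGR1, the factor added in EGR1OV, recognises letters of the form GCGNGGGCG, which read as CGCCCNCGC on the other strand. Promoter sequence came from RefSeq (build GRCm38.p6), from 250 bases before to 50 bases after a RefSeq transcript start, which can lie inside the gene's span in the table, as for Lats2 and Amotl2, and 7 of the 9 genes had an entry, all except Ctgf and Tead1. All 7 held the TEAD letters on one strand or the other, as did 16.6% of the 27025 genes with an entry (14.7% of 32851 windows). The EGR letters were in the window of 1 of the 7, Yap1, at -30 from the start, beside 6.27% of all genes (5.55% of windows). The 2 motifs share no letters in these windows. Each line gives the sense strand around the TEAD letters, 5′ to 3′, with those letters in capitals. Yap1 and Wwtr1 encode the coactivators, and the stretches lie at chr9:8004702-8004767 and chr3:57576011-57576076, both on the minus strand:
Yap1: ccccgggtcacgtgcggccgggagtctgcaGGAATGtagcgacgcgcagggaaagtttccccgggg
Wwtr1: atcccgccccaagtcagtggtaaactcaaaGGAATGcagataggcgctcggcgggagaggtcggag
Cyr61 and Ankrd1 are targets, at chr3:145650053-145650118 and chr19:36119932-36120084 on the minus strand, and Ankrd1 held the letters at 2 places:
Cyr61: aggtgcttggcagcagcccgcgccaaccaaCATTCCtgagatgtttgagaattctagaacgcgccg
Ankrd1: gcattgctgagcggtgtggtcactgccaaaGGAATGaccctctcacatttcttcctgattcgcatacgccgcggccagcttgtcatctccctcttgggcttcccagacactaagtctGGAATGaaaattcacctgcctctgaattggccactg
Amotl2 (chr9:102717709-102717774, plus strand), Lats2 (chr14:57746102-57746131, minus strand) and Ajuba (chr14:54577790-54577877, minus strand) encode regulators, and Ajuba also held the letters at 2 places:
Amotl2: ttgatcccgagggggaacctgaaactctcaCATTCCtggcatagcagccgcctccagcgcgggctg
Lats2: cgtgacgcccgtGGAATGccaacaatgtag
Ajuba: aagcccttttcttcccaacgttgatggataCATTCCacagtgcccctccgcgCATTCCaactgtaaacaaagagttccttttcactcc

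Counted from that transcript start, with bases before it negative, the first base of the letters lay at -141 in Yap1, -136 in Wwtr1, -103 in Cyr61, -65 in Amotl2, -210 and -123 in Ankrd1, and -186 and -164 in Ajuba. In Lats2 it lay at 5, after the start, and a second Lats2 window, for another start, held no match. Among the other genes of the pathway the TEAD letters were in 5 of 8 partners of the coactivators with an entry, 3 of 12 kinases and their regulators, 4 of 12 junction and polarity genes and 2 of 13 further target genes. The EGR letters were in 2 of 8, 3 of 12, 1 of 12 and 1 of 13 of these, in the same order. A match of letters is a description of the sequence and does not show that a factor binds there. The lack of a match does not show that none binds.

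The 9 genes covered a wide range of levels. In Sham, Ankrd1, Ctgf and Cyr61 ranked 27, 28 and 46 of the 13985 genes by mean FPKM, while Amotl2 ranked 357, Ajuba 446, Wwtr1 999, Tead1 1465, Yap1 2965 and Lats2 3755. The order of the 9 was the same in H/R and EGR1OV except at the top, where Ctgf stood above Ankrd1. Ankrd1 and Ctgf overlapped in Sham, and every other pair of neighbours in the order was apart in all 3 groups, with no library of one gene reaching a library of the next. In H/R, however, Ctgf and Ankrd1 were barely apart, with the lowest Ctgf library at 940.5 FPKM and the highest Ankrd1 library at 940.2. The target genes were thus more abundant per length than the other 6 genes, and TAZ messenger RNA was above YAP messenger RNA in every library.

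**Figure D1:**
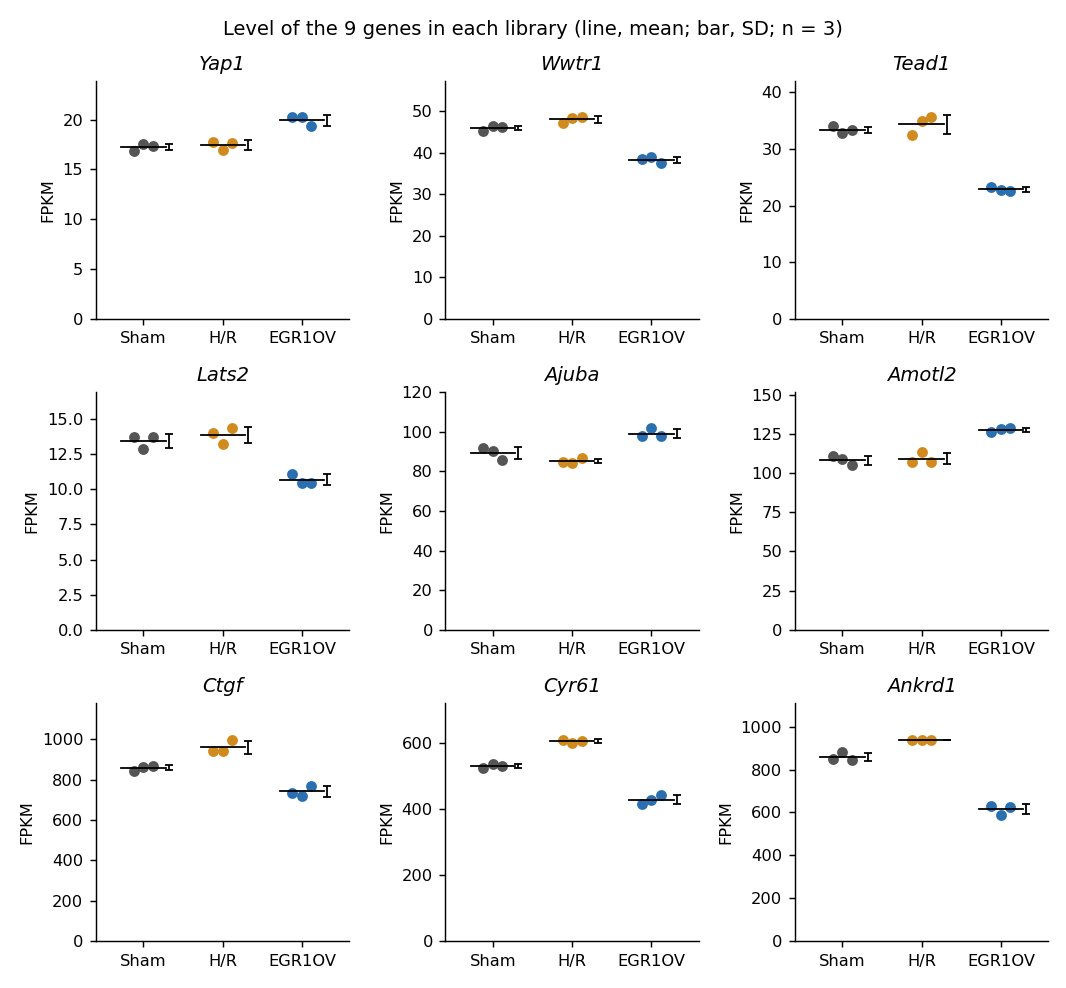
Level of each of the 9 genes in FPKM (vertical axis, from 0) in every library of Sham, H/R and EGR1OV; points are libraries, lines are means and bars are the SD of 3 libraries. In EGR1OV the 3 libraries of every gene lie apart from the 3 Sham libraries, lower for Wwtr1, Tead1, Ctgf, Cyr61, Ankrd1 and Lats2 and higher for Yap1, Amotl2 and Ajuba.

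The comparison of EGR1OV with Sham asks how the pathway's transcripts stood in cells that overexpressed Egr1. Tead1 and Ankrd1 fell, to 0.685 and 0.715 of their Sham means, and were the 2 of 9 genes called at a limma adjusted p under 0.05 and at least 1.3-fold, where 16.4% of all genes tested were called (6.51% lower and 9.87% higher). By the adjusted p alone all 9 passed, 6 lower and 3 higher, beside 45.9% of all genes. The 3 EGR1OV libraries did not overlap the 3 Sham libraries for any of the 9, which held for 55.7% of all genes, and an exact two-sided permutation test of a single gene could reach no p below 0.1 with 3 against 3. The median difference of the 9 was -0.26 on the log2(FPKM + 1) scale, against 0.02 for all genes. In cultured cells sequenced in bulk, fewer cells of a type and less RNA per cell cannot be told apart, for any of these genes.

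The coactivator genes stood on opposite sides. Yap1 (ENSMUSG00000053110, chr9:7931999-8004596, minus strand) was at 16.9, 17.5 and 17.4 FPKM in Sham, 17.8, 16.9 and 17.7 after H/R, and 20.2, 20.2 and 19.3 in EGR1OV. All 3 EGR1OV libraries were above all the others, and Sham and H/R overlapped. The difference of EGR1OV from Sham was 0.20 (SE 0.0325, limma adjusted p 0.000912), under the 1.3-fold threshold, and 0.11 with quantile normalization (adjusted p 0.0214). Wwtr1 (ENSMUSG00000027803, chr3:57455649-57575910, minus strand) was at 45.4, 46.4 and 46.2 FPKM in Sham, 47.2, 48.4 and 48.6 after H/R, and 38.5, 39.0 and 37.6 in EGR1OV. Its EGR1OV libraries were the lowest 3 of the 9 and its H/R libraries the highest 3, and the difference of EGR1OV from Sham was -0.26 (SE 0.025, adjusted p 3.2e-05), again under the fold threshold. The ratio of Wwtr1 to Yap1 FPKM was 2.67 ± 0.0201 in Sham, 2.76 ± 0.106 after H/R and 1.93 ± 0.0198 in EGR1OV (± gives the SD of the 3 libraries here and wherever it is printed). The EGR1OV ratios, 1.91 to 1.95, did not overlap those of the other groups, 2.65 to 2.87 (exact permutation p = 0.1, the smallest possible). The sum of the 2 genes was 63.2 ± 0.889 FPKM in Sham, 65.5 ± 0.658 after H/R and 58.3 ± 1.22 in EGR1OV.

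Tead1, which encodes the TEAD factor with the highest level here, had the largest difference of the 9. Tead1 (ENSMUSG00000055320, chr7:112679318-112906807, plus strand) was at 34.0, 32.9 and 33.3 FPKM in Sham, 32.4, 35.0 and 35.6 after H/R, and 23.4, 22.8 and 22.5 in EGR1OV. The EGR1OV libraries lay well under all the others, while H/R spread across the Sham range. Tead1 fell by 31.5% against Sham, a log2 difference of -0.53 (SE 0.0367, 95% interval -0.61 to -0.44, limma adjusted p 3.01e-06). Tead2, the next TEAD factor by level, fell from 27.9 ± 0.181 to 20.1 ± 0.231 FPKM (log2 -0.45, adjusted p 3.79e-07). Tead3 and Tead4 were not called, at 9.28 ± 0.577 and 3.08 ± 0.176 FPKM in Sham and 8.05 ± 0.488 and 2.44 ± 0.492 in EGR1OV (adjusted p 0.0271 and 0.0625). The summed level of the 4 TEAD genes was 73.6 ± 0.837 FPKM in Sham, 73.3 ± 1.69 after H/R and 53.5 ± 0.353 in EGR1OV, and the share of Tead1 in that sum was 45.4%, 46.8% and 42.8%. EGR1OV was apart from the other groups in both the sum and the share.

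Ankrd1 had the next largest difference. It encodes a cardiac and muscle ankyrin repeat protein and is one of the most used readouts of YAP and TAZ activity. Ankrd1 (ENSMUSG00000024803, chr19:36111965-36119844, minus strand) was at 849.9, 883 and 847 FPKM in Sham, 940.2, 938 and 939 after H/R, and 629.5, 588 and 626 in EGR1OV. The 3 groups did not overlap, with EGR1OV lowest and H/R highest. Ankrd1 fell by 28.5% in EGR1OV, a log2 difference of -0.48 (SE 0.031, 95% interval -0.55 to -0.41, limma adjusted p 1.67e-06).

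Ctgf and Cyr61, 2 secreted matrix proteins of the CCN family and direct targets of YAP and TAZ with TEAD, were lower in EGR1OV by less than the fold threshold. Cyr61 (ENSMUSG00000028195, chr3:145646976-145649981, minus strand) was at 523, 536 and 531 FPKM in Sham, 610.0, 600.4 and 607 after H/R, and 414, 428 and 441 in EGR1OV. Its 3 groups did not overlap, again with H/R highest, and EGR1OV differed from Sham by -0.31 (SE 0.0265, limma adjusted p 1.29e-05). Ctgf (ENSMUSG00000019997, chr10:24595442-24598683, plus strand) was at 845, 864 and 869 FPKM in Sham, 941, 940.5 and 999.5 after H/R, and 735, 719 and 771 in EGR1OV. It kept the same order of groups without overlap, and EGR1OV differed from Sham by -0.21 (SE 0.0345, limma adjusted p 0.000839). With quantile normalization of the libraries that difference of Ctgf was -0.04 (adjusted p 0.457), so whether Ctgf passed the test depends on the scaling. The ratio of Ctgf to Ankrd1 was 1.00 ± 0.024 in Sham, 1.02 ± 0.0361 after H/R and 1.21 ± 0.035 in EGR1OV, where the 3 libraries (1.17 to 1.23) were above all the others (exact permutation p = 0.1, the smallest possible). Ctgf, Cyr61 and Ankrd1 together summed to 2249 ± 32.7 FPKM in Sham, 2505 ± 35.2 after H/R and 1784 ± 51.9 in EGR1OV.

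The 3 regulators differed in direction. LATS2 is the kinase that phosphorylates YAP and TAZ, and Lats2 (ENSMUSG00000021959, chr14:57689662-57758388, minus strand) was at 13.7, 12.9 and 13.7 FPKM in Sham, 14.0, 13.2 and 14.3 after H/R, and 11.1, 10.5 and 10.5 in EGR1OV. The EGR1OV libraries were the lowest 3, and the difference from Sham was -0.30 (SE 0.0424, limma adjusted p 0.000321), under the fold threshold. Its paralog Lats1 was at 16.9 ± 0.195 FPKM in Sham and 17.5 ± 0.599 in EGR1OV (log2 0.04, adjusted p 0.338), and the ratio of Lats2 to Lats1 was 0.793 ± 0.0373 in Sham, 0.776 ± 0.0337 after H/R and 0.61 ± 0.00324 in EGR1OV. AMOTL2 is an angiomotin, a junction protein that can hold YAP and TAZ outside the nucleus. Amotl2 (ENSMUSG00000032531, chr9:102716672-102733418, plus strand) was at 111, 109 and 105 FPKM in Sham, 107, 113 and 107 after H/R, and 126, 128 and 128 in EGR1OV. Its EGR1OV libraries were the highest 3, with a difference from Sham of 0.24 (SE 0.0307, adjusted p 0.000202). AJUBA is a LIM protein that binds and restrains LATS kinases. Ajuba (ENSMUSG00000022178, chr14:54567472-54577558, minus strand) was at 92.0, 90.1 and 85.9 FPKM in Sham, 84.9, 84.4 and 86.6 after H/R, and 97.7, 102 and 97.9 in EGR1OV. Here too EGR1OV was highest, by 0.15 against Sham (SE 0.0304, adjusted p 0.00326), the smallest difference of the 9, and by 0.10 with quantile normalization (adjusted p 0.025). Neither gene reached 1.3-fold.

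Within the angiomotin family the genes stood on different sides of Sham. Amot, the founding angiomotin gene, was at 48.2, 47.2 and 46.3 FPKM in Sham and 23.3, 23.5 and 25.6 in EGR1OV, so that the groups were far from overlapping and Amot fell by 0.94 on the log2 scale (adjusted p 1.57e-07). Amotl1 was at 42.8 ± 0.61 FPKM in Sham and 36.1 ± 0.633 in EGR1OV, a difference of -0.24 that was under the fold threshold (adjusted p 3.73e-05). Amotl2 made up 54.6% ± 0.363 of the summed angiomotin FPKM in Sham, 53.1% ± 1.21 after H/R and 67.9% ± 0.278 in EGR1OV. The sum itself was 198 ± 4.25 FPKM in Sham, 205.5 ± 3.47 after H/R and 188 ± 2.57 in EGR1OV. In the LIM family Ajuba made up 80.2% ± 1.34, 79.8% ± 0.225 and 80.5% ± 0.118 of the sum of Ajuba, Limd1 and Wtip in Sham, H/R and EGR1OV, and Sham and EGR1OV overlapped.

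**Figure D2:**
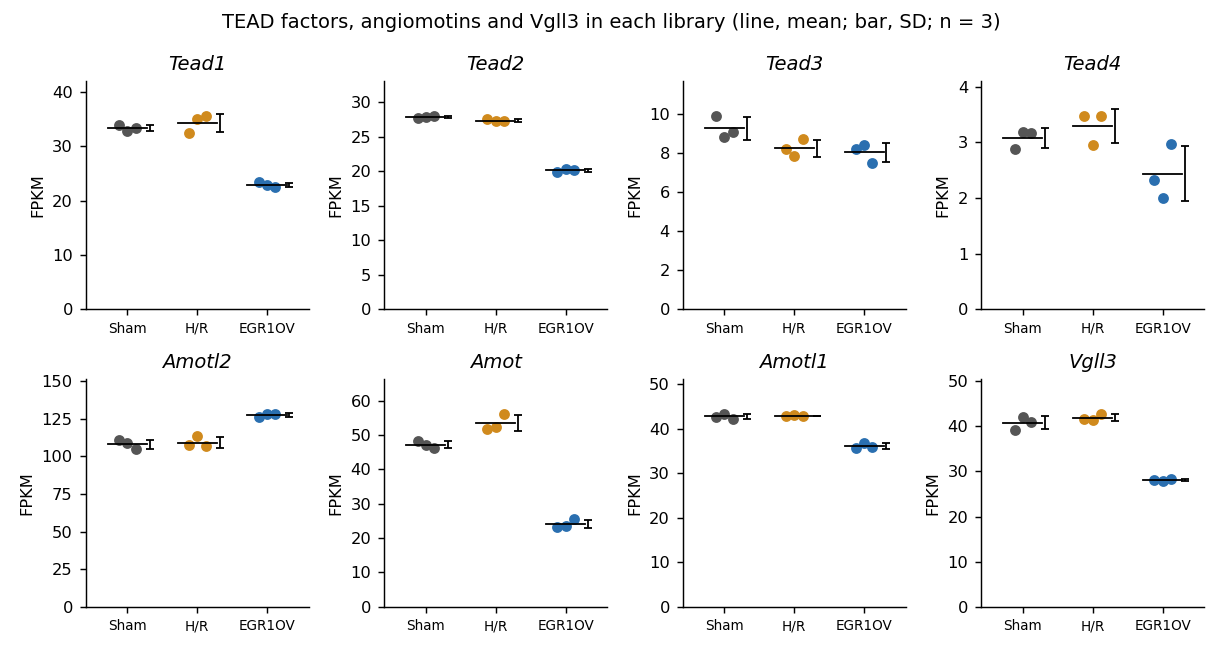
Level in FPKM (vertical axis, from 0) of the 4 TEAD genes, the 3 angiomotin genes and Vgll3 in every library of Sham, H/R and EGR1OV; points are libraries, lines are means and bars are the SD of 3 libraries. Tead1, Tead2, Amot and Vgll3 are lower in all 3 EGR1OV libraries than in any other library, while Amotl2 is higher.

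The comparison of H/R with Sham asks how the same transcripts stood after hypoxia and 18 h of reoxygenation. The 3 target genes were higher in H/R, at 1.14 (Cyr61), 1.12 (Ctgf) and 1.09 (Ankrd1) times their Sham means, and the other 6 stayed within about 5 percent of Sham by their means. None of the 9 was called by limma at an adjusted p under 0.05 and at least 1.2-fold, where 4.25% of all genes tested were called. By the adjusted p alone 3 of 9 passed, beside 11.7% of all genes, and with no adjustment 4 of 9 had a p under 0.05, beside 28% of all genes. A voom fit on the recovered reads, chosen after seeing the data, called none of the 9. The log2 differences were 0.19 for Cyr61 (SE 0.0265, 95% interval 0.13 to 0.25, limma adjusted p 0.00306), 0.16 for Ctgf (SE 0.0345, 0.08 to 0.24, adjusted p 0.0201) and 0.13 for Ankrd1 (SE 0.031, 0.06 to 0.20, adjusted p 0.0321). Cyr61 kept an adjusted p under 0.05 in 18 of 18 alternative fits, Ctgf in 13 and Ankrd1 in 9. Ctgf lost it with no filter on low values (adjusted p 0.106), without Sham 1, 2 or 3 (0.0691, 0.0551 and 0.0505) and without H/R 3 (0.0547). Ankrd1 lost it under 4 processing choices (no filter, quantile normalization, the replicate block and limma without trend) and without Sham 1, Sham 3 or any 1 of the H/R libraries (adjusted p 0.0735 to 0.154). The H/R libraries of the 3 target genes did not overlap Sham, nor did those of Wwtr1, so 4 of 9 genes were apart, where 33.6% of all genes were. The median difference of the 9 was 0.04, against -0.03 for all genes.

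The other 6 genes differed less, and their intervals cover only the spread between these libraries. Wwtr1 differed by 0.06 (95% interval 0.0061 to 0.12, limma adjusted p 0.139), and by 0.10 with median-ratio scaling, where it passed the adjusted p (0.0325). Tead1 differed by 0.04 (-0.04 to 0.12, limma adjusted p 0.546) and Lats2 by 0.04 (-0.05 to 0.14, adjusted p 0.556). Yap1 differed by 0.02 (-0.06 to 0.09, adjusted p 0.803), Amotl2 by 0.01 (-0.06 to 0.08, adjusted p 0.818) and Ajuba by -0.07 (-0.13 to 0.0035, adjusted p 0.198). Each of these intervals lies inside a 1.2-fold difference in either direction.

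**Figure D3:**
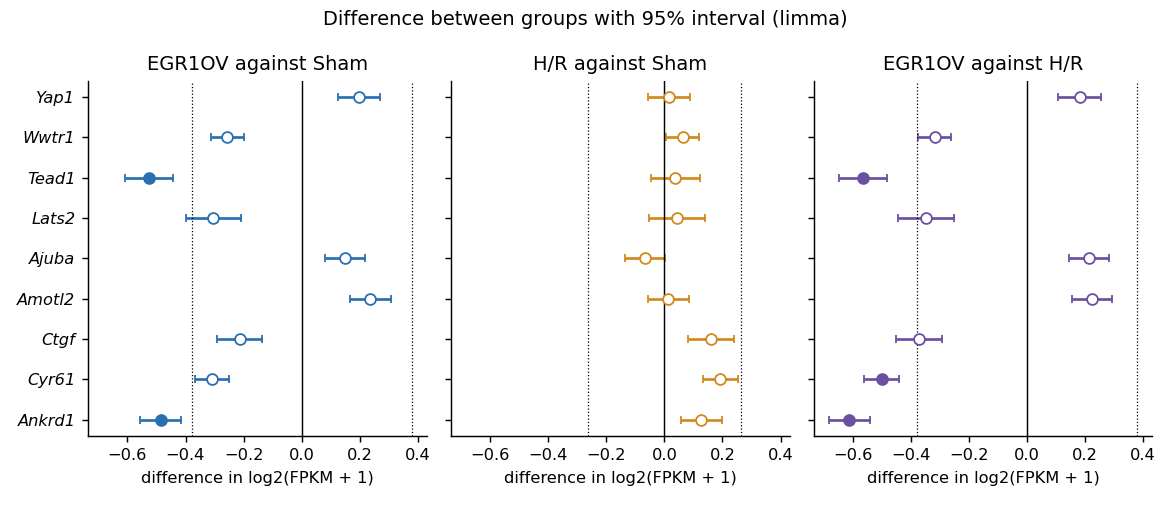
Difference in log2(FPKM + 1) between groups for the 9 genes (horizontal axis), with the 95% interval from limma, in 1 panel for each comparison; filled points were called, and dotted lines mark the fold threshold of 1.3 (1.2 for H/R against Sham). Tead1 and Ankrd1 pass the threshold against Sham in EGR1OV, Cyr61 also passes it in EGR1OV against H/R, and no gene passes it in H/R against Sham.

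In EGR1OV against H/R, 3 of the 9 genes were called and all 3 fell, where 18.9% of all genes tested were called (6.94% lower). Ankrd1 fell by 0.61 on the log2 scale (SE 0.031, limma adjusted p 3.03e-07), Tead1 by 0.56 (SE 0.0367, adjusted p 1.74e-06) and Cyr61 by 0.50 (SE 0.0265, adjusted p 4.02e-07). Ctgf, at -0.37 (SE 0.0345, adjusted p 1.95e-05), was just under the 1.3-fold threshold, as were Lats2 at -0.35 and Wwtr1 at -0.32 (adjusted p 0.000122 and 6.4e-06). Amotl2, Ajuba and Yap1 were higher in EGR1OV by 0.22, 0.21 and 0.18 (adjusted p 0.000259, 0.000321 and 0.0013). All 9 passed the adjusted p, beside 51% of all genes, and none overlapped, beside 58.6%. The count of 3 became 6 with median-ratio scaling and 5 with quantile normalization or without H/R 2, when Ctgf, Lats2 or Wwtr1 crossed the fold threshold. With quantile normalization Yap1 no longer passed the adjusted p (0.07, adjusted p 0.1), and Ctgf was at -0.21 (adjusted p 0.00159). With median-ratio scaling Yap1 was at 0.11 (adjusted p 0.0147). Sham serves in both comparisons above and EGR1OV and H/R in 2 each, so the 3 sets of differences are not independent, and for Cyr61, Ctgf and Ankrd1 the Sham libraries lie between the other groups.

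Genes whose levels ran most like those of the target genes over the 9 libraries were sought among 7588 genes of at least 5 FPKM on average, by Pearson's r of log2(FPKM + 1). For Ctgf they were Stk39 (r = 0.99), Usp9x (0.988) and Cavin3 (0.987), and for Cyr61 Nectin3 (0.995), Hbegf (0.993) and Ptprk (0.993). For Ankrd1 they were Tubb2b, Sept2 and Cd24a (0.998 each). Hbegf, which encodes a ligand of the EGF receptor, had means of 161, 204 and 121 FPKM in Sham, H/R and EGR1OV. The 9 points fall into 3 groups and share depth and preparation, so these r describe the order of the groups and carry no test.

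Other genes of the pathway were described in 5 lists. In EGR1OV against Sham, where 9.87% of all genes tested were called higher and 6.51% lower, 1 of 14 kinases and their regulators rose and 1 fell, a share near that of all genes. Taok3, a kinase upstream of MST, rose from 5.43 ± 0.0629 to 9.45 ± 0.32 FPKM (log2 0.70, limma adjusted p 5.24e-07). Wwc1, which encodes the LATS activator KIBRA, fell from 65.3 ± 0.763 to 47.3 ± 0.55 FPKM (log2 -0.46, adjusted p 2.2e-06). The list's median was -0.03. Of 18 junction, polarity and cytoplasmic regulators 17 passed the filter, 1 rose and 2 fell, again near the 16.4% called over all genes, with a median of -0.06. Beside Amot, the atypical cadherin Fat1 fell from 88.8 ± 1.42 to 66.6 ± 1.08 FPKM (log2 -0.41, adjusted p 2.1e-06). Llgl1, a basolateral polarity gene, rose from 20.0 ± 0.839 to 27.1 ± 0.188 FPKM (log2 0.42, adjusted p 6.53e-06).

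Of the partners of the coactivators, 7 of the 9 listed were in the table, and 2 of these 7 fell and none rose, with a median of -0.18. Over all genes tested 6.51% were called lower and 9.87% higher. Vgll3, which encodes a cofactor that competes for TEAD, fell with Tead2: it was at 39.3, 42.1 and 41.1 FPKM in Sham and 28.1, 27.9 and 28.3 in EGR1OV (log2 -0.52, limma adjusted p 7.73e-07). The groups were far apart and the EGR1OV libraries nearly equal. Runx1, a factor that can bind YAP and TAZ, was at 9.62 ± 0.407 FPKM in Sham and 9.03 ± 0.679 in EGR1OV (adjusted p 0.35).

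The 20 further target genes split, with 4 that rose and 7 that fell in EGR1OV against Sham (9.87% and 6.51% over all genes) and a median of -0.04. The largest differences were rises: Birc3, an inhibitor of apoptosis that is also a gene of NF-kB signalling, went from 4.84 ± 0.129 to 10.3 ± 0.202 FPKM (log2 0.95, limma adjusted p 3.79e-07), and Igfbp3 from 4.26 ± 0.37 to 8.39 ± 0.401 (log2 0.84, adjusted p 2.21e-06). Areg, an EGF receptor ligand, rose from a low level, 0.508 ± 0.165 to 1.34 ± 0.221 FPKM, with as few as 8 reads in a library. The other gene that rose was the receptor kinase Axl, and the 7 that fell were Crim1, Ccdc80, Tgfb2, Nuak2, F3, Rbms3 and Fjx1, all of these named after their values were seen. Their differences ran from -0.58 for Crim1 to -0.42 for Fjx1. Among the CCN genes outside the 9, Wisp2 rose from 0.125 ± 0.0567 to 1.24 ± 0.132 FPKM (log2 0.99, adjusted p 1.06e-05), with as few as 2 reads in a library. Wisp1 was at 47.5 ± 0.868 and 42.6 ± 0.525 FPKM (log2 -0.15, under the fold threshold), and Nov and Wisp3 did not pass the filter.

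**Figure D4:**
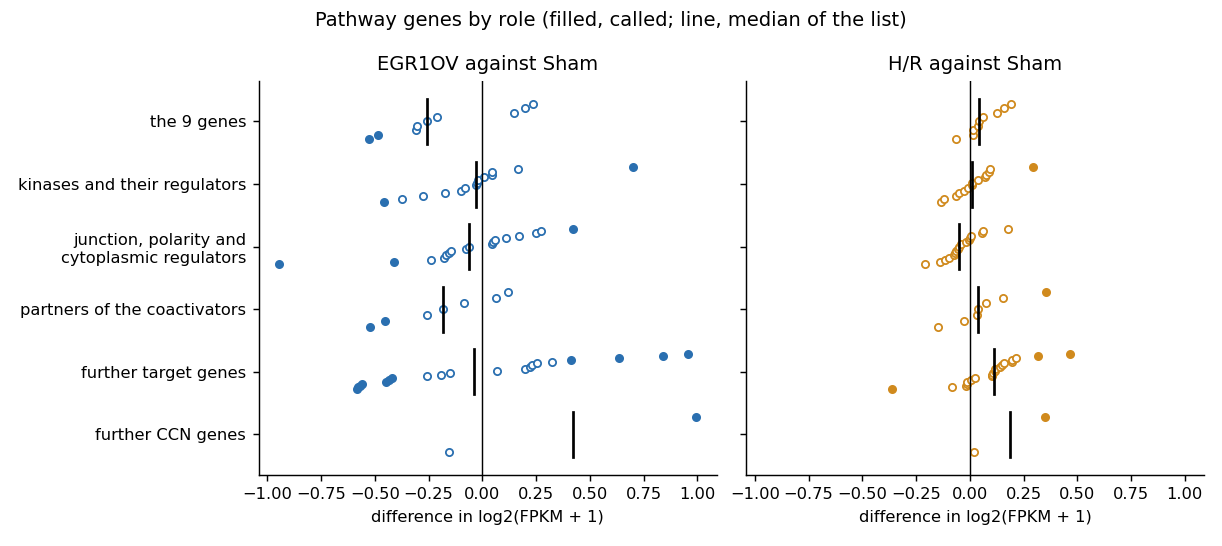
Difference in log2(FPKM + 1) (horizontal axis) of each tested gene of the 9 genes and of the 5 lists, for EGR1OV against Sham and H/R against Sham; filled points were called and the upright line is the median of the list. Called genes lie on both sides of 0 among the further target genes, with 4 that rose and 7 that fell in EGR1OV.

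In H/R against Sham few genes of the lists were called. Frmd6, a FERM protein upstream of the kinases, rose from 18.4 ± 0.368 to 22.8 ± 0.612 FPKM (log2 0.29, limma adjusted p 0.00166) and was the only call among 14 kinases and their regulators. None of the 17 junction and polarity genes was called, with 2.65% of all genes called lower and 1.6% higher. Runx1 rose from 9.62 ± 0.407 to 12.6 ± 1.06 FPKM (log2 0.35, adjusted p 0.0125), the 1 call among 7 partners. Of 20 further target genes Igfbp3 and Nt5e rose (log2 0.47 and 0.32, adjusted p 0.00178 and 0.011) and Birc5, a mitotic gene, fell from 5.21 ± 0.539 to 3.85 ± 0.576 FPKM (log2 -0.36, adjusted p 0.0328). The median of that list was 0.11. Wisp1 rose from 47.5 ± 0.868 to 60.9 ± 0.402 FPKM (log2 0.35, adjusted p 0.00011), with H/R libraries at 60.6, 61.3 and 60.7 above Sham libraries at 48.1, 46.5 and 47.9.

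In EGR1OV against H/R, where 11.9% of all genes were called higher and 6.94% lower, the called genes of the lists were 1 of 14 kinases and their regulators, which was Taok3 (log2 0.75, limma adjusted p 3.05e-07), and 2 of 17 junction and polarity genes, Amot (-1.12, adjusted p 4.32e-08) and Llgl1 (0.43, adjusted p 5.46e-06). All 3 called partners fell, Vgll3 by 0.56, Runx1 by 0.44 and Tead2 by 0.43, of 7 tested. Of 20 further target genes 3 rose and 7 fell, the largest being Ccdc80 (-0.78), Birc3 (0.74) and Tgfb2 (-0.68). Both further CCN genes tested were called. Wisp2 rose by 0.97 from a low level (limma adjusted p 1.1e-05) and Wisp1 fell by 0.50 (limma adjusted p 1.61e-07).

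Some markers of other cell types also differed in EGR1OV. Of 6 smooth muscle markers, all tested, 5 fell in EGR1OV against Sham, where 6.51% of all genes tested were called lower. In H/R none was called, with 4 higher and 2 lower by value. Their summed level was 3578 to 3708 FPKM in Sham, 3285 to 3540 under H/R and 1428 to 1507 in EGR1OV, most of it Acta2, the smooth muscle actin gene, at 2947 ± 63.7, 2743 ± 113 and 1131 ± 38.9 FPKM. Cnn1 was at 251 ± 5.73, 253 ± 7.37 and 100.2 ± 4.85 FPKM, Myh11 at 2.83 ± 0.0769, 2.93 ± 0.326 and 0.706 ± 0.105, and Tagln, at 4.37 ± 0.501 FPKM in Sham, was far under Acta2. Of 9 leukocyte markers 7 were tested and all 7 fell in EGR1OV, with a summed level of 139.9 to 144 FPKM in Sham, 116 to 123 under H/R and 22.1 to 26.6 in EGR1OV, led by Lyz2 (57.6 ± 1.62 to 5.46 ± 0.588), while the means of Ptprc and Itgam were under 0.5 FPKM. The summed level of 6 endothelial markers was 9.32 to 9.75 FPKM in Sham, 9.50 to 9.90 under H/R and 6.55 to 7.20 in EGR1OV, with 1 of 4 tested called, Pecam1, which fell. That of 8 fibroblast markers was 33.7 to 35.4, 40.1 to 41.2 and 38.2 to 43.1 FPKM, with Pdgfra, Dcn and Lum under 0.5, and that of 5 podocyte markers 20.1 to 21.9, 18.4 to 21 and 22.5 to 23.6. Of 5 fibroblast markers tested in EGR1OV against Sham, Col1a2 was called higher (log2 0.45) and Thy1 lower (-0.50). Over all genes tested 9.87% were called higher. None of the 3 podocyte markers tested was called there. In H/R against Sham, 1.6% of all genes tested were called higher and 2.65% lower. Of 7 leukocyte markers tested, Lyz2 and Adgre1 fell (log2 -0.29 and -0.36), and all 7 were lower by value. Of 5 fibroblast markers tested, Col1a2 and Col1a1 rose (0.32 and 0.27), with 3 higher and 2 lower by value. Of 3 podocyte markers tested, Podxl rose (0.36) and Synpo fell (-0.49). No endothelial marker was called.

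Tubule epithelium markers summed to 1915 to 1952 FPKM in Sham, 1771 to 1850 under H/R and 1251 to 1360 in EGR1OV. Of the 9 tested, 4 fell and 1 rose in EGR1OV against Sham, where 6.51% of all genes tested were called lower and 9.87% higher. Lrp2, the endocytic receptor megalin of the proximal tubule, fell from 3.60 ± 0.0824 to 1.22 ± 0.0476 FPKM (log2 -1.05, limma adjusted p 1.01e-07), and the water channel gene Aqp1 from 1.3 ± 0.112 to 0.368 ± 0.11 (log2 -0.75, adjusted p 7.45e-05). The keratins Krt8 (1014 ± 11.8 to 618 ± 37.5 FPKM) and Krt18 (685 ± 13.3 to 412 ± 15.9) also fell, and Epcam (76.2 ± 0.881 to 100.4 ± 4.46) rose. In H/R against Sham Epcam rose (log2 0.33) and no other tubule marker was called. The part of these marker shifts in the differences of the 9 genes, in EGR1OV or in H/R, was not tested.

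**Figure D5:**
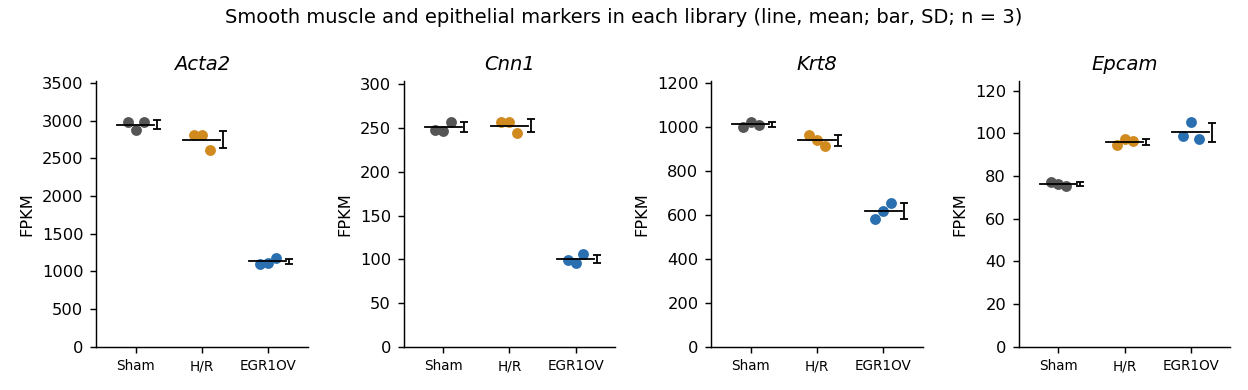
Level in FPKM (vertical axis, from 0) of the smooth muscle markers Acta2 and Cnn1 and the epithelial markers Krt8 and Epcam in every library of Sham, H/R and EGR1OV; points are libraries, lines are means and bars are the SD of 3 libraries. Acta2, Cnn1 and Krt8 are lowest in the 3 EGR1OV libraries, while Epcam is higher in H/R and EGR1OV than in Sham.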

How the data were processed

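RNA sequencing (Illumina NovaSeq) was done on 9 libraries, grouped by their labels. The authors deposited 1 table of FPKM per gene and library. The submitters' processing notes name Bowtie2 2.2.3, HISAT2 2.1.0, TopHat2 and the build mm9, yet 94.6% of gene positions and 99.8% of identifiers in the table equal those of GENCODE M21 (GRCm38). Positions are printed as in the table. The counter was not given in the sources used here, nor whether strand was used. Reads were recovered from the steps of FPKM and M21 exon lengths, and 94.0% of 162897 values of 1 to 1000 reads were whole within 0.02. For Ankrd1 the exon length differs, so its reads are approximate.

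The tests used log2(FPKM + 1), a scale on which changes of low genes are understated. They came from limma 3.58.1 in R 4.3.3 (two-sided, with the trend option of eBayes) in 1 fit of all 9 libraries and the 13985 genes whose mean reached 0.5 FPKM. Adjusted p-values are Benjamini-Hochberg over all of these. Called genes had an adjusted p under 0.05 and differed by at least 1.3-fold, or 1.2-fold where H/R was set against Sham. Both folds against Sham were those of the study, while the one used between EGR1OV and H/R was set here. The fit was also run on simulated libraries with known changes, and the outcome is not given here. Those changes were larger than most differences of the 9 genes. Single values were compared with an exact two-sided permutation test of 3 against 3.

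The members and lists were chosen with earlier results of these data known. From each pathway list and comparison, up to 3 called genes with the largest change were named. Other list genes were named outside this rule, such as paralogs of the members, Runx1, Wisp1 and the remaining called target genes in EGR1OV against Sham. Marker genes were named after their values were seen. For Ctgf, Cyr61 and Ankrd1 the 3 genes with the highest correlation were named. Alternatives were a pseudocount of 0.1, no filter, a filter at 5 FPKM, median-ratio scaling, quantile normalization, limma without trend, fits of 2 groups, each library left out, a replicate block, no fold threshold and, chosen after seeing the data, voom on the recovered reads. Libraries of equal replicate number were not treated as paired in the main fit. Correlations between them showed no clear pairing, but with 3 libraries per group they cannot decide it.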

Additional observations from a re-analysis of the deposited data

How the results depend on the processing

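Of 486 values of single genes under the alternatives, 474 kept their direction and call, 10 gained a call, none lost one and 2 changed sign, both of Amotl2 in H/R against Sham (-0.0079 without Sham 3 and -0.014 without H/R 2, limma adjusted p 0.911 and 0.821), where leaving out single libraries gave -0.014 to 0.0313. Without the fold threshold the counts of called genes were 9, 3 and 9 for EGR1OV against Sham, H/R against Sham and EGR1OV against H/R, and over all genes 6417, 1635 and 7135 in place of 2291, 594 and 2641. Leaving out each library gave 2 to 2, 0 to 0 and 3 to 5, the 5 without H/R 2. In EGR1OV against H/R, median-ratio scaling called 6 and quantile normalization 5, and in EGR1OV against Sham quantile normalization added Lats2 (-0.40). The cause was not tested. Voom on recovered reads called 1001 genes in H/R against Sham. Of all called genes, 60.3%, 37.7% and 63.2% were higher as deposited, 54.9%, 58.2% and 51% with median-ratio scaling, and 45.9%, 56.5% and 42.5% with quantile normalization. Correlations between libraries of the same number were -0.195 to 0.263 over 9 pairs, 5 of 18 comparisons were best with their own number, and with the replicate block the counts were 2, 0 and 3; Ankrd1 in H/R then had an adjusted p of 0.0735. FPKM are relative to each library's total, so a common shift of all transcripts would not be seen.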

Other observations

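The row of the table with the symbol Taz is not the coactivator TAZ. It is the gene of tafazzin, a mitochondrial enzyme of cardiolipin remodelling (ENSMUSG00000009995, chrX:74281912-74290151), while TAZ is the product of Wwtr1. It was looked at after its values were seen, because a search for the pathway by name would find it. Taz was at 5.50, 4.81 and 4.88 FPKM in Sham, 5.09, 4.06 and 4.98 in H/R, and 6.75, 6.24 and 6.47 in EGR1OV. All 3 EGR1OV libraries were above the others, where those of Wwtr1 were below. The log2 difference was 0.31 against Sham (SE 0.0762, limma adjusted p 0.00929, not called) and 0.40 against H/R (adjusted p 0.00203, called), so the 2 symbols give opposite directions.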
